A study of Mus musculus with 4 samples.

Results

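The genes described here build the acid-secreting machinery of the gastric parietal cell. They are the proton pump subunit genes Atp4a and Atp4b, the potassium channel genes Kcnq1, Kcne2 and Kcnj15, the anion transport genes Slc26a7, Slc26a9, Slc4a2 and Clic6, and the nuclear receptor gene Esrrg. The 10 genes were chosen by name, and each was measured by 1 probe set carrying only its own symbol, out of 22180 genes named by a single symbol and 41345 probe sets in all. The samples were whole stomach of FVB mice aged 1 year, 2 of genotype Hdc+/+ and 2 of genotype Hdc-/-, each on 1 Affymetrix array. Mice of the second genotype lack histidine decarboxylase, so they cannot make histamine from histidine. No drug or other treatment separates the groups per the labels, and the sources used here do not give the sex of the mice or how the Hdc allele was made. The tissue was cut into small pieces without sorting, so each value mixes all cell types of the organ. Arrays of a genotype are titled biological replicates, but nothing says that each came from its own mouse, and p-values therefore measure only the spread between these 4 samples, which may be technical.

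Parietal cells acidify the stomach by exchanging cytosolic protons for luminal potassium through the H,K-ATPase, whose catalytic alpha subunit is encoded by Atp4a and whose glycosylated beta subunit by Atp4b. The pump runs only while potassium is returned to the lumen through apical channels and while chloride follows the proton. Bicarbonate left behind in the cell leaves across the basolateral membrane in exchange for chloride. Histamine from enterochromaffin-like cells acts on the H2 receptor of the parietal cell and is a main stimulus of secretion, which is why the genes of this machinery were compared between mice with and without histamine synthesis.

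Promoter sequence is shown for a gene of the pump, a transporter gene that read low on 1 Hdc-/- array, and the nuclear receptor gene, because these 3 stand for the patterns described below. RefSeq promoter entries of build GRCm38.p6 were matched for 6 of the 10 genes, with 11 start sites between them. The last 250 bases before the start site are printed 5′ to 3′ in lower case, with TATAAA on either strand in capitals, the overlapping pair of matches in Slc26a9 forming 1 run.
Atp4a, chr7:30711959-30712208, plus strand: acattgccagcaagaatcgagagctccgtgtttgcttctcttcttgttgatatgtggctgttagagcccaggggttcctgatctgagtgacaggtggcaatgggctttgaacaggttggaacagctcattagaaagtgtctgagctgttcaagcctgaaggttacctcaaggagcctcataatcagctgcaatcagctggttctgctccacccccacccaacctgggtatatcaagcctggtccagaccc
Slc26a9, chr1:131743772-131744021, plus strand: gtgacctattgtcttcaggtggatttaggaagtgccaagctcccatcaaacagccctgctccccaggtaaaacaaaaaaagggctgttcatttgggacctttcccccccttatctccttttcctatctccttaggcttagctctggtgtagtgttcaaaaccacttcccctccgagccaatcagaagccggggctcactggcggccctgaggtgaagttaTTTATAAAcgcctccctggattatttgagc
Esrrg, chr1:187608756-187609005, plus strand, the first of 4 start sites: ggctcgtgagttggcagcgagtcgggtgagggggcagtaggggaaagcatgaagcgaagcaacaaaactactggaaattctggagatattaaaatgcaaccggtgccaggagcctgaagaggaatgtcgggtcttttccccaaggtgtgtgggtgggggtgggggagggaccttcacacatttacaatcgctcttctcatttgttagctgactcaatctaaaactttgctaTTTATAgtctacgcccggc
TATAAA, the core of the TATA box, was found on either strand in 2 of the 11 windows, and in 12.4% of all 32851 windows of the same length. In Slc26a9 it began 28 bases before the start on the gene's own strand, and in Esrrg it lay on the opposite strand. AAGGTCA, the core of the element that estrogen-related receptors bind, was found on either strand in 0 of the 11 windows and in 4.08% of all windows. These matches describe letters only.

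Libraries differed in ways that touch these genes. The summed levels of liver, pancreas and intestine genes were highest on Hdc+/+ array 2. The hepatocyte list, 9 of 10 genes measured, summed to 12.24 and 13.71 on the log2 scale on Hdc+/+ arrays 1 and 2 and to 9.08 and 9.64 on the Hdc-/- arrays. The pancreatic acinar list, with 8 of 10 measured, summed to 12.48 on Hdc+/+ array 2 against 7.71 to 7.90 on the other arrays, and the intestinal list, with all 10 measured, to 13.02 against 8.74 to 10.37. Hdc itself read between 3.77 and 4.06 with overlapping groups, and it checks no label, since the position of its probes against the deleted part is unknown here. Precision is limited throughout by having 4 arrays.

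Markers of other cells also differed between the genotypes, and their part in the differences below was not tested. The hepatocyte list lay apart downward in 9 of 9 measured genes (Serpina1c -7.61, Alb -7.02, Mup3 -5.60), the intestinal list in 8 of 10 (Akp3 -5.85, Alpi -4.70, Fabp2 -3.92) and the pancreatic list in 2 of 8, those with the smallest p being Cela1 (-1.78) and Prss2 (-1.24). Adipocyte genes lay apart downward in 6 of 6 (Fabp4 -2.88, Adipoq -2.11, Retn -1.54), squamous genes in 6 of 7 (Sprr3 -2.45, Krt4 -2.15, Lor -1.12), smooth muscle genes in 5 of 6 (Cnn1 -0.50) and surface pit cell genes in 3 of 6 (Capn8 -1.32). Chief cell genes lay apart upward in 4 of 7 (Cym 3.09, Cblif 1.07, Pgc 0.64) and endocrine genes in 5 of 7 (Chga 1.89, Slc18a2 1.42, Chgb 0.92). Other genes of these lists read lower with overlapping groups, Rnase1 (-1.16) and Gkn3 (-0.58) among chief cell genes and Gast (-0.82) among endocrine genes. Over all genes 21.5% lay apart upward and 17.6% downward, and none of these named genes passed the adjusted limma threshold. Summed log2 levels on Hdc+/+ and then Hdc-/- arrays were 10.18 and 10.82 against at most 9.07 for adipocyte, 7.82 and 8.30 against 6.69 and 6.94 for squamous and 13.05 and 12.45 against 13.63 and 13.58 for chief cell genes. For endocrine genes they were 10.57 and 10.30 against 10.88 and 11.89, and for smooth muscle genes 11.78 and 11.88 against 11.55 and 11.56.

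The pump subunit genes differed little between genotypes, by 0.01 for Atp4a and 0.10 for Atp4b on the log2 scale. Both varied more between the Hdc+/+ arrays than between the groups. Atp4a read 11.08 and 10.42 on Hdc+/+ arrays 1 and 2 and 10.70 and 10.83 on Hdc-/- arrays 1 and 2. The Hdc-/- values lay between the Hdc+/+ values, so the groups overlapped. The Atp4a difference, Hdc-/- minus Hdc+/+ here and throughout, had an SE of 0.26 and a 95% confidence interval from -0.62 to 0.65 (n = 2 per group, limma adjusted p = 0.995). Atp4b read 11.49 and 10.96 on the Hdc+/+ arrays and 11.32 and 11.33 on the Hdc-/- arrays. Its order over the arrays was that of Atp4a, with Hdc+/+ array 1 highest and Hdc+/+ array 2 lowest. The Atp4b difference had an SE of 0.22 and an interval from -0.45 to 0.65 (limma adjusted p = 0.945). As folds the intervals ran from 0.650 to 1.57 (Atp4a) and from 0.732 to 1.57 (Atp4b), so differences of either sign inside them were not excluded. These intervals are unadjusted and give no limit of detection. Slc26a7 at 1.94-fold did not pass the adjusted test either (limma adjusted p = 0.502). A change in the number of parietal cells and a change in RNA per cell cannot be told apart in whole tissue, for these and all genes below. Without Hdc+/+ array 2 the differences were -0.32 (Atp4a) and -0.16 (Atp4b), and without Hdc+/+ array 1 they were 0.35 and 0.37.

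**Figure D1:**
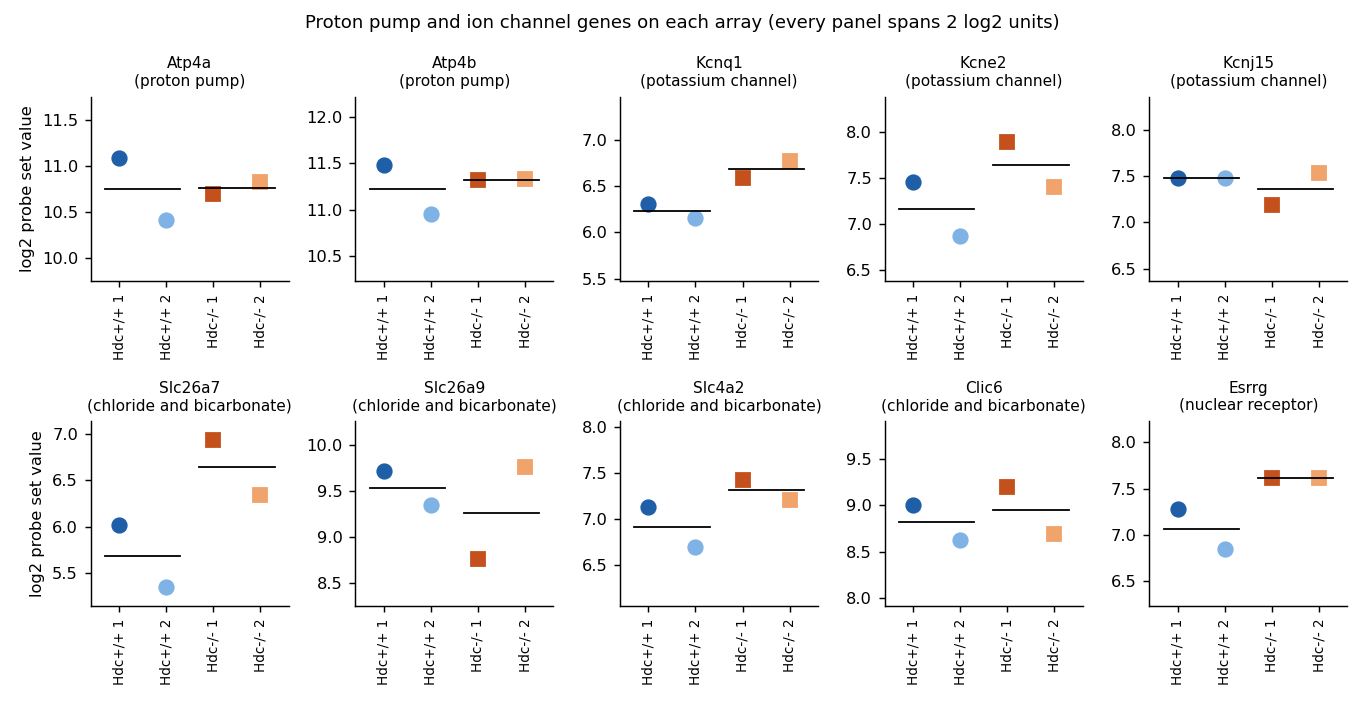
Log2 probe set value of each of the 10 genes (vertical axis, a span of 2 log2 units in every panel) on the 4 arrays (circles, Hdc+/+ arrays 1 and 2; squares, Hdc-/- arrays 1 and 2), with black lines at the group means. Hdc+/+ array 2 is the lowest point in 8 of the 10 panels, beside 29.9% of all genes, and Hdc-/- array 1 is the lowest for Kcnj15 and Slc26a9.

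Among the potassium channel genes, the channel pore gene Kcnq1 and its subunit gene Kcne2 read higher on the Hdc-/- arrays by 0.45 and 0.48, and Kcnj15 read lower by 0.12, none past the test. KCNQ1 and KCNE2 together form the apical potassium channel that supplies the pump, and Kcnj15 encodes the inward rectifier Kir4.2. Kcnq1 read 6.31 and 6.16 on the Hdc+/+ arrays and 6.59 and 6.78 on the Hdc-/- arrays. Both Hdc-/- arrays lay above both Hdc+/+ arrays, a difference of 0.45 (SE 0.17, interval 0.02 to 0.87) or 1.37-fold, with an unadjusted limma p of 0.0419 and an adjusted p of 0.565. Kcne2 read 7.46 and 6.87 on the Hdc+/+ arrays and 7.88 and 7.40 on the Hdc-/- arrays. Hdc-/- array 2 lay below Hdc+/+ array 1, so the Kcne2 groups overlapped although the difference of 0.48 (SE 0.27, interval -0.21 to 1.16, limma adjusted p = 0.684) was close to that of Kcnq1. Without Hdc+/+ array 2 the Kcne2 difference was 0.18, without Hdc-/- array 1 it was 0.24, and without Hdc+/+ array 1 or Hdc-/- array 2 it was 0.77 or 0.72, while that of Kcnq1 stayed between 0.35 and 0.54. Kcnj15 read 7.48 on both Hdc+/+ arrays and 7.19 and 7.53 on the Hdc-/- arrays. It was the 1 gene of the 10 that was the same to 2 decimals on both Hdc+/+ arrays, and its difference of -0.12 (SE 0.19, interval -0.58 to 0.35) rested on Hdc-/- array 1. Without that array it was 0.06.

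The anion transport genes went in different directions, with Slc26a7 showing the largest difference of the 10 genes and Slc26a9 the lowest. Slc26a7 encodes a chloride and bicarbonate transporter of the basolateral membrane of parietal cells. It read 6.02 and 5.35 on the Hdc+/+ arrays and 6.94 and 6.34 on the Hdc-/- arrays. The groups did not overlap, and the difference was 0.96 (SE 0.31, interval 0.18 to 1.73) or 1.94-fold, with an unadjusted limma p of 0.0238 and an adjusted p of 0.502. Arrays within each genotype also differed by 0.68 (Hdc+/+) and 0.60 (Hdc-/-). With 1 array left out at a time the Slc26a7 difference ran from 0.62 without Hdc+/+ array 2 to 1.29 without Hdc+/+ array 1.

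Slc4a2, whose product AE2 is the main basolateral chloride and bicarbonate exchanger of the parietal cell, read 7.13 and 6.70 on the Hdc+/+ arrays and 7.42 and 7.21 on the Hdc-/- arrays. Its groups lay apart by 0.08 at their nearest values. The difference was 0.40 (SE 0.21, interval -0.12 to 0.93) or 1.32-fold (limma adjusted p = 0.651). It was 0.19 without Hdc+/+ array 2 and 0.62 without Hdc+/+ array 1. Clic6, of the chloride intracellular channel family, read 9.01 and 8.63 on the Hdc+/+ arrays and 9.20 and 8.69 on the Hdc-/- arrays. The Clic6 groups overlapped, with a difference of 0.13 (SE 0.25, interval -0.48 to 0.74).

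Slc26a9 encodes a chloride channel and transporter found in gastric surface cells as well as parietal cells. It read 9.71 and 9.35 on the Hdc+/+ arrays and 8.76 and 9.75 on the Hdc-/- arrays. The lowest and the highest of the 4 values were both Hdc-/- arrays, 0.99 apart, and this was the widest gap within a genotype among the 10 genes. The genotype difference was -0.27 (SE 0.35, interval -1.15 to 0.60, limma adjusted p = 0.883), and without Hdc-/- array 1 it was 0.22. On that same array all 6 measured surface pit cell genes also read lowest of the 4 arrays, among them the mucin gene Muc5ac at 11.76 against 12.36 to 12.55. The summed level of the pit cell list was 14.98 on Hdc-/- array 1 and 15.22 to 15.27 on the other arrays. Muc6, a mucous neck cell mucin gene, read 11.94 there against 8.40 to 9.30, while the neck cell list of 4 genes as a whole had centred medians of 0.76 there and 0.66 on Hdc+/+ array 2, against -0.78 and -0.74 on the other arrays. Cftr, of the same list, read 6.39 on Hdc+/+ array 2 and 3.03 to 3.48 elsewhere. The part of surface or neck cells in the Slc26a9 value was not tested.

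Esrrg, the estrogen-related receptor gamma gene, encodes an orphan nuclear receptor that regulates genes of oxidative metabolism and ion transport. It read 7.28 and 6.84 on the Hdc+/+ arrays and 7.61 and 7.62 on the Hdc-/- arrays. The Hdc-/- arrays agreed to within 0.01, and both lay above the Hdc+/+ arrays. The difference was 0.55 (SE 0.20, interval 0.05 to 1.06) or 1.47-fold, with an unadjusted limma p of 0.0373 and an adjusted p of 0.552. It ran from 0.33 without Hdc+/+ array 2 to 0.77 without Hdc+/+ array 1. Of its relatives, Esrra read 6.80 and 6.79 against 6.93 and 7.04, a difference of 0.19 (SE 0.16), and the Esrrb groups overlapped. Ppargc1a, the coactivator gene of these receptors, read 5.05 and 4.89 on the Hdc-/- arrays, above Hdc+/+ array 2 at 4.78 and a lower Hdc+/+ array 1, a difference of 0.58 (SE 0.28, limma adjusted p = 0.635).

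**Figure D2:**
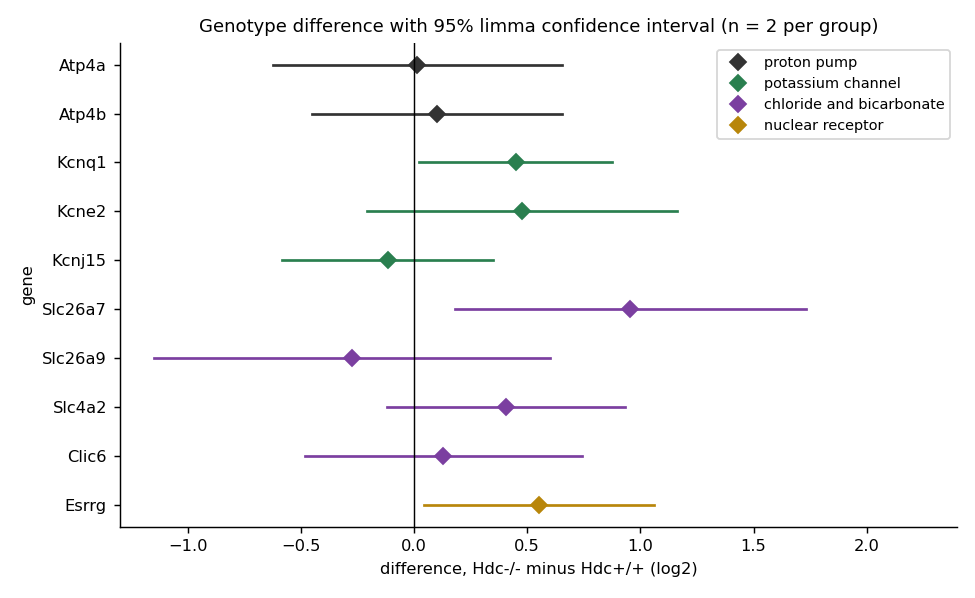
Genotype difference (horizontal axis, log2, Hdc-/- minus Hdc+/+) of each of the 10 genes, with the 95% limma confidence interval as a line and the role of the gene as colour. The intervals of Kcnq1, Slc26a7 and Esrrg exclude 0 before adjustment over all genes, and those of the other 7 include it.

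Over the 10 genes limma called 0 at an adjusted p under 0.05 in either direction, where 0.00451% of all genes were called higher and 0% lower. Before adjustment, 3 passed 0.05 in the higher direction (Kcnq1, Slc26a7 and Esrrg) and 0 in the lower, beside 3.68% of all genes higher and 4.87% lower. The groups lay apart upward for 4 of the 10, these and Slc4a2, and downward for 0, beside 21.5% and 17.6% of all genes. Differences were above 0 for 8 of the 10, beside 54.1% of all genes, and their median was 0.27 beside 0.02. Hdc+/+ array 2 carried much of that median, which was 0.06 without it and 0.45 without Hdc+/+ array 1. Leaving out Hdc+/+ array 1 also raised the calls over all genes from 1 higher and 0 lower to 3 and 158, and none of the 10 genes was among the calls under any of the 14 alternatives, with a lowest adjusted p of 0.320 (Slc26a7 with the replicate number as a block).

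All 10 genes read lower on Hdc+/+ array 2 than on Hdc+/+ array 1, as 54.7% of all genes did. For 6 of the 10 the gap between the Hdc+/+ arrays was wider than the genotype difference. Around each gene's mean, the 10 genes had a median of 0.06 and -0.33 on Hdc+/+ arrays 1 and 2 and of 0.20 and 0.11 on Hdc-/- arrays 1 and 2. A list of 10 other genes used as parietal cell markers, including the sodium and proton exchanger gene Slc9a4 and the carbonic anhydrase gene Car2, had medians from -0.04 to 0.05 over the arrays, and 6 of the 10 read lower on Hdc+/+ array 2 than on Hdc+/+ array 1. The difference between the lists was not tested. Several of those 10, such as Ckb and Cckbr, are also active in other cells of the stomach. Low values on Hdc+/+ array 2 were not particular to the 10 genes. The chief cell and endocrine lists also had their lowest centred medians there, at -0.65 and -0.46. The array with the low pump values is the one with the high liver, pancreas and intestine sums. The part of RNA from those organs in the low values was not tested.

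**Figure D3:**
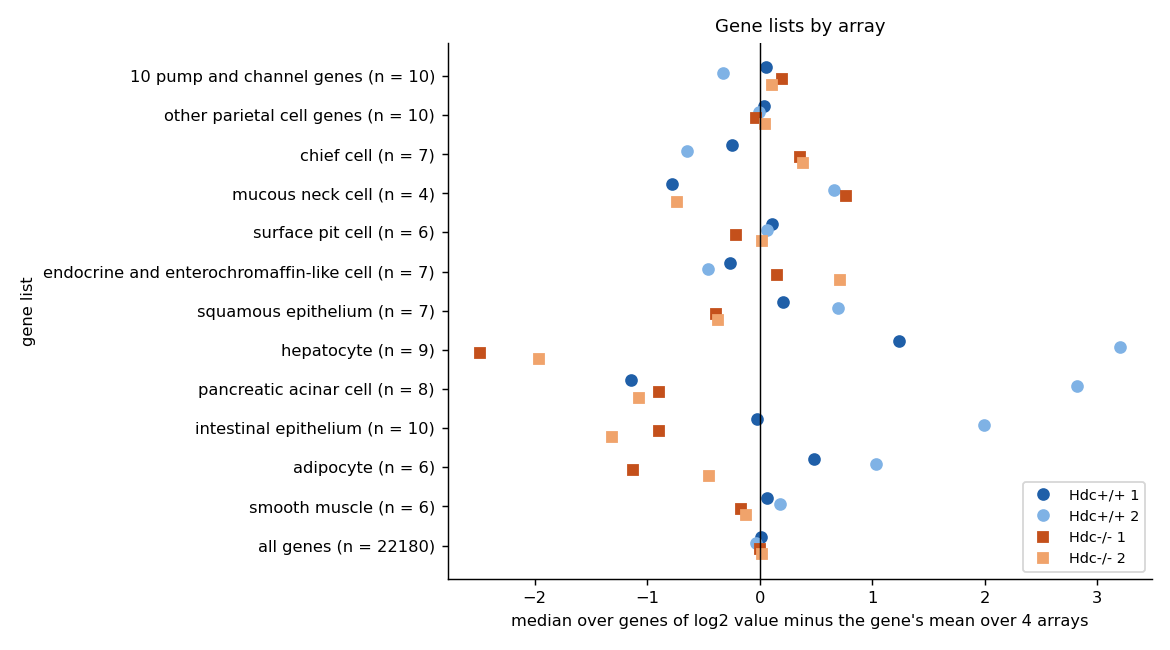
Median over the genes of each list of the log2 value minus the gene's own mean over the 4 arrays (horizontal axis), by list and array (circles, Hdc+/+; squares, Hdc-/-), with the number of measured genes. The 10 pump and channel genes lie lowest on Hdc+/+ array 2 (-0.33), as do the chief cell (-0.65) and endocrine (-0.46) lists. The hepatocyte, pancreatic and intestinal lists lie highest on that array.

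Each gene was also set against the pump on its own array, by subtracting the mean of Atp4a and Atp4b. That mean was 11.29 and 10.69 on the Hdc+/+ arrays and 11.01 and 11.08 on the Hdc-/- arrays. Relative to it, 5 of the 8 other genes read higher on both Hdc-/- arrays than on both Hdc+/+ arrays and 0 read lower without overlap, beside 6.36% and 10.9% of all genes treated alike. The 5 were Kcnq1, Kcne2, Slc26a7, Slc4a2 and Esrrg. An exact two-sided permutation test over the 4 arrays gave each of them p = 0.333, the smallest it can give with this design. On the deposited scale 21.5% of all genes lay apart upward and 17.6% downward, so the subtraction itself lowered both shares. The pump mean spanned 0.60 over the arrays, with both extremes on Hdc+/+ arrays. Subtracting it widens the Hdc+/+ gap of genes that did not vary with the pump. Of the 5 genes, 4 (all but Kcne2) already lay apart upward on the deposited scale. The contrast with 6.36% is therefore not stronger evidence for them.

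The gap between the Hdc+/+ arrays became narrower on this scale for 6 of the 8 genes. For Kcne2 it went from 0.59 to 0.01, and the values relative to the pump were -3.83 and -3.81 on the Hdc+/+ arrays and -3.12 and -3.68 on the Hdc-/- arrays, so groups that overlapped on the deposited scale lay apart here. The relative difference of Kcne2 was 0.42, but 0.14 without Hdc-/- array 1 and 0.70 without Hdc-/- array 2. Slc26a7 stood at -5.26 and -5.34 against -4.07 and -4.74, a difference of 0.90 on the log2 scale relative to the pump, which was 0.56 without Hdc-/- array 1 and 1.23 without Hdc-/- array 2. Esrrg stood at -3.40 and -3.46 on the Hdc-/- arrays, above the nearer Hdc+/+ array at -3.84, a difference of 0.49 between group means that stayed between 0.41 and 0.57 with any 1 array left out. Slc4a2 differed by 0.35, with 0.20 without Hdc-/- array 1 and 0.49 without Hdc-/- array 2, and Kcnq1 by 0.39, the Kcnq1 value being 0.16 without Hdc+/+ array 1 and 0.62 without Hdc+/+ array 2.

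Kcnj15, Slc26a9 and Clic6 overlapped relative to the pump, with differences of -0.18, -0.33 and 0.07. The Hdc+/+ gap widened for Kcnj15, from 0.001 to 0.60, and for Kcnq1, from 0.15 to 0.45. The median relative difference of the 8 genes was 0.37, beside -0.03 for all genes, and it was 0.17 without Hdc-/- array 1 and 0.21 without Hdc+/+ array 1. Subtracting the pump lowers the genotype difference of every gene by the same 0.06. The contrast between the 8 genes and all genes is therefore that of the deposited scale and adds no further comparison. When all genes were refitted relative to the pump, limma called none of the 10, with adjusted p from 0.986 upward. The share of all genes called in that refit is not given here, so the lack of calls is not particular to the 10.

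**Figure D4:**
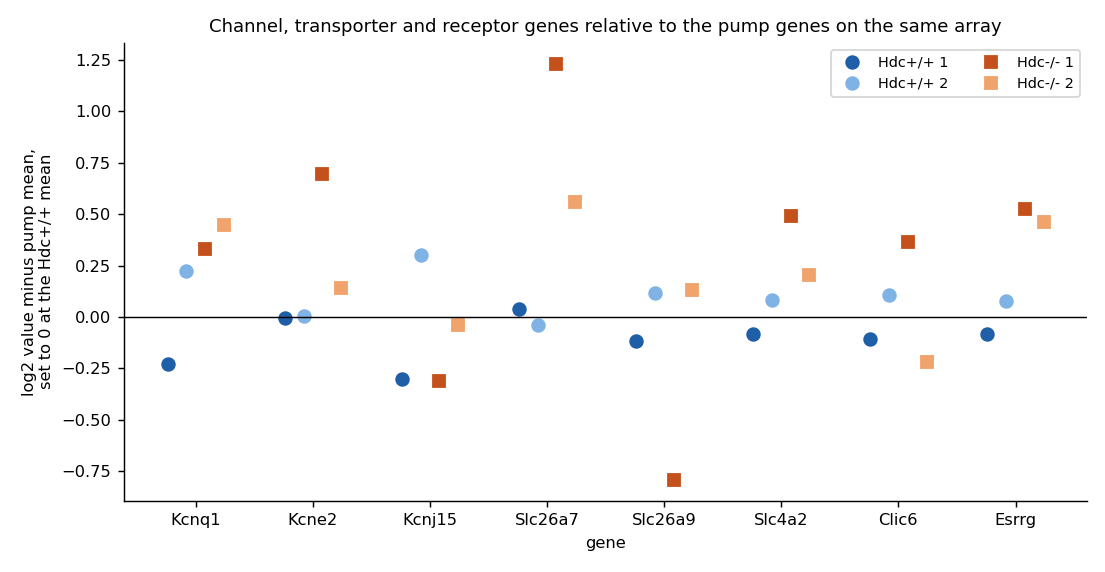
Log2 value of each of the 8 other genes minus the mean of Atp4a and Atp4b on the same array, shifted so that the Hdc+/+ mean of each gene is 0 (vertical axis), with circles for Hdc+/+ and squares for Hdc-/- arrays. Both squares lie above both circles for Kcnq1, Kcne2, Slc26a7, Slc4a2 and Esrrg, and Hdc-/- array 1 is the highest point for Slc26a7 and the lowest for Slc26a9.

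Gene families of these transporters and channels were compared next. Of the 11 Slc26 genes, which encode anion transporters, Slc26a7 was the 1 whose groups lay apart upward, and 5 lay apart downward, beside 21.5% and 17.6% of all genes. Those 5 (Slc26a1, Slc26a2, Slc26a3, Slc26a5 and Slc26a6) all read highest on Hdc+/+ array 2. For Slc26a5 this rests on very small gaps, with 3.529 and 3.531 against 3.503 and 3.518, a difference of -0.02 (SE 0.16). Slc26a3, the chloride and bicarbonate exchanger gene of the intestine, read 4.96 and 9.70 on the Hdc+/+ arrays and 3.50 and 4.16 on the Hdc-/- arrays. Its difference was -3.50 (SE 1.44, limma adjusted p = 0.588), with Hdc+/+ array 1 also above both Hdc-/- arrays. The summed intestinal list was likewise highest on Hdc+/+ array 2, and its part in these values was not tested. The test of a difference between Slc26a7 and these genes was not run.

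Clic5, a relative of Clic6 that links membranes to the cortical actin network, read 7.41 and 7.85 on the Hdc+/+ arrays and 5.69 and 6.44 on the Hdc-/- arrays. That difference of -1.57 (SE 0.30, limma adjusted p = 0.303) had the largest size in the Clic family of 5, where Clic6 overlapped. In the Kcne family of 5 subunit genes, Kcne3 read 5.01 and 5.37 against 4.80 and 4.59, a difference of -0.50 (SE 0.20, limma adjusted p = 0.584), while Kcne1 overlapped. Kcne1 lies between Kcne2 and Clic6 in RefSeq's gene table (assembly GRCm38.p6), where 11 entries separate that pair, 5 of them protein-coding. Among the 9 measured Slc4 genes, 1 lay apart upward (Slc4a2) and 1 downward (Slc4a3, -0.25, SE 0.16), no larger a share than the 21.5% and 17.6% of all genes. Atp12a, the non-gastric proton and potassium pump alpha subunit gene, read 3.99 and 4.08 against 4.68 and 4.33, a difference of 0.47 (SE 0.19, limma adjusted p = 0.586). Atp1b2, a sodium pump beta subunit gene, differed by -0.23 (SE 0.18).

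The wider set of acid secretion genes, 57 of 62 listed being measured apart from the 10, gave a median difference of 0.07, beside 0.02 over all genes. Limma called 0 of them at an adjusted p under 0.05, and before adjustment 2 passed 0.05 as higher and 2 as lower, beside 3.68% and 4.87% of all genes. The groups lay apart upward for 14 and downward for 15 of 57, beside 21.5% and 17.6% of all genes. The higher pair were Slc12a2, the basolateral sodium, potassium and chloride cotransporter gene (9.99 and 9.52 against 10.70 and 10.16, difference 0.68, SE 0.26), and the adenylyl cyclase gene Adcy6 (0.48, SE 0.17). The lower pair were Clcn2, a chloride channel gene (7.35 and 7.82 against 6.99 and 6.22, difference -0.98, SE 0.31), and the prostaglandin receptor gene Ptger3 (-0.91, SE 0.29).

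Of the 6 receptor genes measured, Hrh2, the H2 histamine receptor gene, read 4.99 on both Hdc+/+ arrays and 4.84 and 4.90 on the Hdc-/- arrays, a difference of -0.12 (SE 0.16). Car2 read 11.89 and 11.87 against 12.24 and 11.74, with overlapping groups. Among the 8 basolateral transport genes measured, 7 differences were above 0, beside 54.1% of all genes. The groups lay apart upward for 2 of the 8 and downward for 0, beside 21.5% and 17.6% of all genes. Slc9a4 read 9.84 and 9.78 against 10.13 on both Hdc-/- arrays (0.32, SE 0.16, limma adjusted p = 0.633). The 15 genes of tubulovesicle traffic, which moves the pump to the apical membrane, ran from -0.34 (Rab27b, SE 0.16) to 0.34 and had 4 apart upward and 6 downward, beside 21.5% and 17.6% of all genes. Rab11a, a small GTPase gene of pump recycling, read 7.52 and 7.20 against 7.19 and 6.99, a difference of -0.27 (SE 0.19). Of the messenger genes, Sst, the gene of the inhibitor somatostatin, read 9.63 on Hdc-/- array 2 against 7.08 to 7.85 elsewhere. Ghrl, the ghrelin gene, overlapped (0.67, SE 0.38), as did Gast, the gastrin gene (-0.82, SE 0.54), which read 5.18 on Hdc-/- array 1 and at least 6.70 elsewhere.

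**Figure D5:**
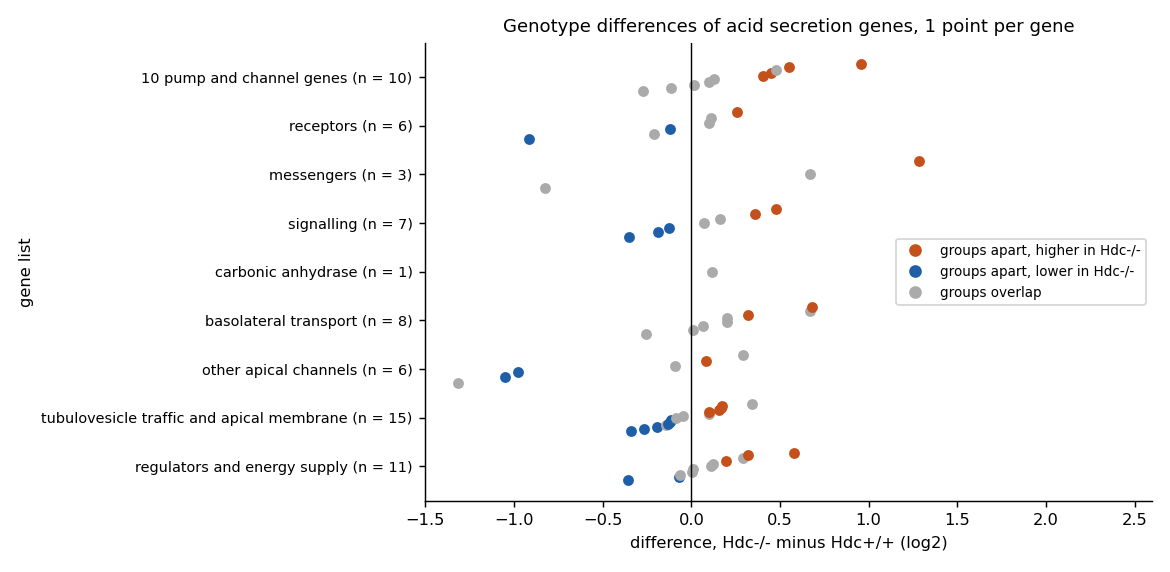
Genotype difference (horizontal axis, log2, Hdc-/- minus Hdc+/+) with 1 point per gene, for the 10 genes and for 57 other acid secretion genes by role, coloured by whether the values of the groups lie apart. In the traffic list the points run from -0.34 to 0.34, and 4 of the 10 pump and channel genes lie apart upward.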

How the data were processed

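The authors deposited log2 values per probe set. The submitters' processing notes name RMA, which normalizes arrays together, and the tools oligo and Affymetrix Power Tools, with no versions. Filters and the build of the array annotation are unknown here. Probe sets were named by the platform annotation: 23521 had 1 symbol, 1814 several and 16010 none. For 1082 genes with several probe sets the brightest by mean was kept, and no dim gene was left out. Hdc-/- arrays were compared with Hdc+/+ arrays by limma (version 3.58.1, R 4.3.3; lmFit and eBayes, no covariate), with Benjamini-Hochberg adjustment over 22180 genes at 0.05, with 2 residual and 3.62 prior degrees of freedom. Adjusted p-values are from that fit unless an alternative is named, and the fit was tested on simulated data. Centred list medians and values relative to the pump were computed from the log2 values. All 10 genes were named. From each other list the rule named up to 3 genes with the largest differences among those apart at an unadjusted p under 0.05, or otherwise the 2 with the smallest p. Slc26a3, Slc26a5, Slc26a6, Slc9a4, Hrh2, Esrra, Esrrb, Kcne1, Muc5ac, Gast, Cckbr, Aqp4, Rnase1 and Gkn3 were added after their values were seen. The genes and lists were chosen with earlier results of these data known. Alternatives covered the filter, probe set rule, normalization, prior, replicate block and single arrays.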

Additional observations from a re-analysis of the deposited data

How the results depend on the processing

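None of the 10 genes passed limma's adjusted threshold under any of 14 alternatives, and 5 of them (Slc26a7, Esrrg, Kcnq1, Kcne2 and Slc4a2) kept a positive difference in each. The dim filters, probe set rules, prior and blocks leave the difference of a gene with 1 probe set as it is. In those alternatives no sign could turn. Among the rest, signs turned for the other genes. With 1 array left out at a time the differences ran from -0.32 (without Hdc+/+ array 2) to 0.35 for Atp4a, -0.16 (without Hdc+/+ array 2) to 0.37 for Atp4b, -0.13 (without Hdc-/- array 1) to 0.39 for Clic6, -0.29 to 0.056 (without Hdc-/- array 1) for Kcnj15 and -0.77 to 0.22 (without Hdc-/- array 1) for Slc26a9. Relative to the mean of both pump genes Atp4a was at -0.043. The median of the 10 genes ran from 0.06 to 0.45 with 1 array left out, and the median of 8 genes relative to the pump from 0.17 to 0.43. Over all genes limma called 1 higher and 0 lower. The calls were 3 and 2 with a trended and robust prior, 0 higher with every probe set tested, and from 0 to 3 higher and 0 to 158 lower with 1 array left out. There the lone array is assumed to be as variable as the other genotype. With the replicate number as a block 1 gene was called higher and 6 lower. Same-numbered arrays deviated from their group means with a correlation of -0.119 over genes, so a crossed pairing was added after seeing the data and called 0 in either direction. The cause of these shifts was not tested. Quantile normalization and centring moved the median difference of all genes from 0.02 to 0.03. Signal over background was not used here, so no gene was called undetected.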

Other observations

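The genes of the brighter 25% whose values followed the pump most closely over the 4 arrays were Tmem203, Cenpb, Klf7, Jag1 and Dbn1, out of 5543 candidates. Likeness was the root mean square distance between the values of the gene and the mean of Atp4a and Atp4b, each centred on its own mean over 4 arrays. It was 0.03 for Tmem203 and 0.06 for Dbn1 on the log2 scale. Tmem203 read 6.30 and 5.65 on the Hdc+/+ arrays and 5.95 and 6.02 on the Hdc-/- arrays, the order of the pump. With 4 arrays many of 5543 genes can fall close to any profile. The other 8 pump and channel genes stood farther off, from 0.21 (Slc4a2) to 0.51 (Slc26a7), and Slc4a2 was 939th among the candidates.

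Genes of mitochondrial energy supply, on which the pump depends, had a median difference of 0.0016 over 10 genes, beside 0.02 over all genes. Limma called 0 of them at an adjusted p under 0.05, beside 0.00451% of all genes called higher and 0% lower. Before adjustment 0 passed 0.05 in either direction, beside 3.68% and 4.87% of all genes. With shares this small, counts of 0 among 10 genes do not set the list apart. The groups lay apart upward for 2 of the 10 and downward for 0, beside 21.5% and 17.6% of all genes. The members with the smallest p were Cox4i1 (0.44, SE 0.18) and Cycs (-0.28, SE 0.21), both of the respiratory chain.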
